A study of Mus musculus with 6 samples.

Results

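The 34 genes of glycolysis and of the cellular response to low oxygen were followed in Th9 cells, a CD4+ T helper subset that makes interleukin-9. They were chosen by name for their place in the pathway, with earlier results of these data known, and comprise 19 enzymes of glycolysis and of closely linked sugar and lactate steps, 6 genes that control glycolytic flux and 9 genes of the hypoxia response. All 34 were found among the 41388 genes of the table, and all 34 were among the 11379 genes that were abundant enough to be tested, that is, at a mean of 10 or more normalized counts. The data were bulk RNA-Seq of mouse T cells on the C57BL/6 background, from 3 wild-type (WT) and 3 Irf1-/- cultures, and the comparison asked what IRF1, a transcription factor induced by IFN-γ, does to the transcripts of these cells. Naive CD4+ T cells from spleen and lymph nodes of mice aged 8 to 12 weeks were stimulated through CD3 and CD28 and kept for 2 days with IL-2, IL-4 and TGF-β, and both genotypes also received rat IFN-γ at 5 ng per ml. By the study's culture methods, an antibody against mouse IFN-γ was present during priming. No culture without IFN-γ was part of these RNA-Seq samples, and the Irf1-/- cells came from mice bred as Irf1-/-, with no restriction to a cell type named. The study describes the samples of a genotype as biologically independent, and the labels do not say which mice each came from.

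Glycolysis splits glucose into pyruvate, and lactate dehydrogenase turns pyruvate into lactate. Activated T cells run this pathway at a high rate also when oxygen is plentiful, and the hexokinases, phosphofructokinases and pyruvate kinase carry its main control points. Hypoxia-inducible factors (HIFs) are transcription factors made of an α subunit, such as HIF-1α, and the partner ARNT. In normal oxygen the prolyl hydroxylases of the Egln genes mark the α subunit for destruction, and at low oxygen it accumulates and switches on many glycolytic enzymes together with VEGF-A, BNIP3 and the Egln genes themselves.

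The libraries held between 5639788 and 13348230 reads on genes, and 3 reads corresponded to a normalized count of 1.84 to 4.16. Replicates 1 and 2 of each genotype lay close together, with a chi-square per degree of freedom of 1.28 in WT and 1.82 in Irf1-/- cells, whereas replicate 3, the largest library of each genotype, differed from them with values from 5.85 to 7.21. A value near 1 is what the sampling of reads alone would give, so WT replicates 1 and 2 differed by little more than that. The tests below treat the 3 cultures of a genotype as independent. WT replicates 1 and 2 also held transcripts of 4 Y-linked genes, with summed normalized counts of 2301 and 2306 against 0 to 11.1 in the other 4 libraries, which held Xist, so that among the WT cultures replicate 3 alone matched the Irf1-/- cultures in this respect. The 9 T cell markers were present in all libraries, with summed normalized counts of 31747 to 37292 in WT and 37203 to 41039 in Irf1-/- cells. They did not move together, since Il9 rose (log2 fold change 1.75, SE 0.124, limma adjusted p = 9.25e-06) and Cd3e, a chain of the T cell receptor complex, fell (-0.30, SE 0.0605, limma adjusted p = 0.00535), while the other 7, Cd4 and Cd28 among them, did not pass the test. Summed CD8 markers gave 32.4 to 41.2 in WT and 20.3 to 30.7 in Irf1-/- cells. B cell markers stayed at 18.7 to 37.4 and erythroid markers at 7.16 to 12.5. NK cell markers, nearly all of it Nkg7, gave 347 to 498 in WT and 223 to 236 in Irf1-/- cells. Myeloid markers reached 993 in Irf1-/- replicate 2 against 15.98 to 209 elsewhere. Above 3 reads in some library were all 9 T cell, both CD8 and all 7 myeloid markers, 2 of 5 B cell, 2 of 4 NK cell and 3 of 7 erythroid markers. Ncr1 and Klrb1c, which define NK cells, and Pax5, which defines B cells, were at 0 in all libraries, and the part of other cells in the results was not tested. Irf1 itself had normalized counts of 2968, 2907 and 2659.8 (WT) against 1780.2, 1729 and 1476 (Irf1-/-) and fell to 0.584 times its WT mean, with a log2 fold change of -0.78 (standard error, SE, 0.0756; adjusted p = 7.32e-05 by limma with Benjamini-Hochberg correction). Reads on Irf1 thus remained in the Irf1-/- libraries, and the deleted part of the gene was not examined separately. For each gene below, values are given in the order of replicates 1, 2 and 3, means with their SD (n = 3), and differences as the Irf1-/- minus the WT mean of log2(normalized count + 1).

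Irf1-/- cells held more of the transcripts of this pathway than WT cells. Of the 34 genes, 19 rose and 1, Eno3, fell at an adjusted p below 0.05 in limma's test, while 14 did not pass it. Of all genes tested, 23.7% passed in either direction, 11.4% rose and 12.4% fell, against 55.9% and 2.94% of the 34 genes. The log2 fold change was above 0 for 31 of the 34 genes, and its median was 0.30, against -0.00 over all genes tested. In 19 of the 34 genes (55.9%) the values of both genotypes did not overlap, which held for 40.5% of all genes tested and, in the direction of higher values in Irf1-/- cells, for 19.7%. Summed over the 34 genes, the normalized counts were 83577, 84091 and 101607 for WT against 106117, 109524 and 114587 for Irf1-/- cultures, or 1.05%, 1.06% and 1.24% against 1.35%, 1.40% and 1.44% of all normalized counts. The sum was thus 1.23 times as high without IRF1, and every Irf1-/- culture lay above every WT culture. In bulk RNA, a different share of cells that use the pathway and a different amount of RNA per cell cannot be told apart.

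**Figure D1:**
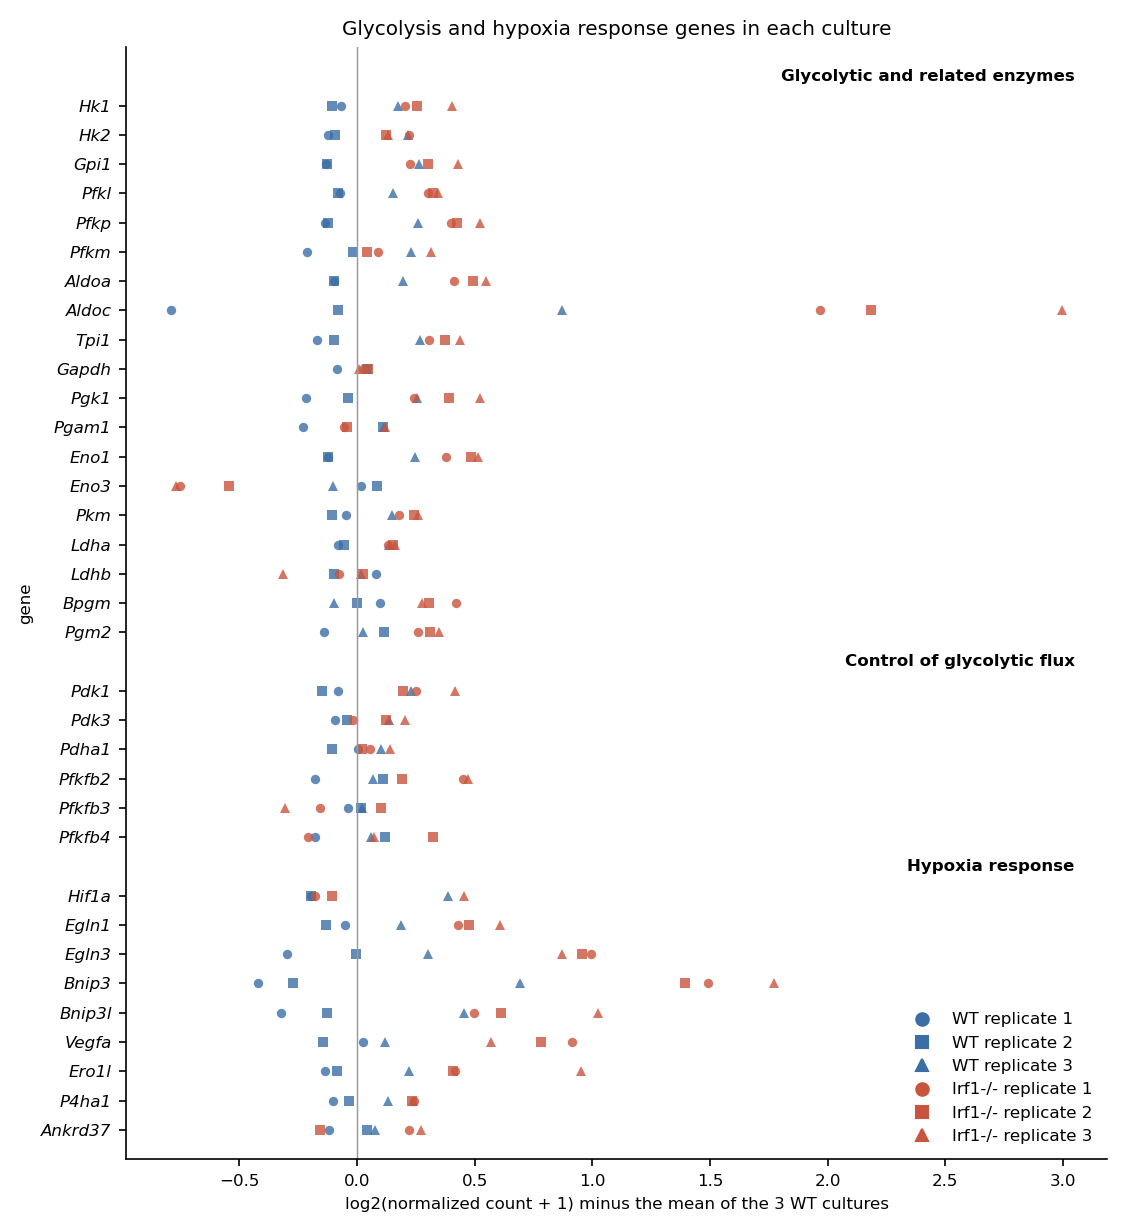
Level of each of the 34 genes in each culture, as log2(normalized count + 1) minus the mean of the 3 WT cultures, with the genes grouped by role on the vertical axis; blue symbols are WT and red symbols Irf1-/- cultures, and circles, squares and triangles are replicates 1, 2 and 3. The WT triangle lies to the right of the WT circle and square for most genes, and Aldoc and Bnip3 show the widest gaps between the genotypes.

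How far the difference reached depended on which WT libraries were compared. WT replicate 3 lay above the mean of WT replicates 1 and 2 in 32 of the 34 genes (94.1%), by a median of 0.24 on the log2 scale, whereas this held for 54.5% of all genes tested, with a median of 0.02. Between replicates 1 and 2 of the genotypes, the median log2 fold change of the 34 genes was 0.31. Between the 2 replicate 3 cultures it was 0.19, with 29 of the 34 genes (85.3%) above 0 against 49.6% of all genes. In the 4 libraries that held Xist, 3 Irf1-/- cultures against WT replicate 3, which was then assumed to vary like the Irf1-/- cultures, the median was 0.10. There, Aldoc, Egln3, Bnip3 and Vegfa still rose and Eno3 still fell, 4 and 1 genes against backgrounds of 3.44% in each direction. Their log2 fold changes there, beside those over all 6 cultures, were 1.51 and 2.38 for Aldoc, 0.86 and 1.55 for Bnip3, 0.64 and 0.94 for Egln3, 0.63 and 0.75 for Vegfa and -0.59 and -0.69 for Eno3. With replicates 1 and 2 of each genotype averaged into 1 value, 5 of the 20 calls remained, those of these same genes, against backgrounds of 3.63% and 3.46%. The median was then 0.28. Both settings were chosen after seeing the data. The parts of sex and of the culture in these values were not tested, since a fit with the Y-linked transcripts as a covariate rests on WT replicate 3 alone for its estimate.

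**Figure D2:**
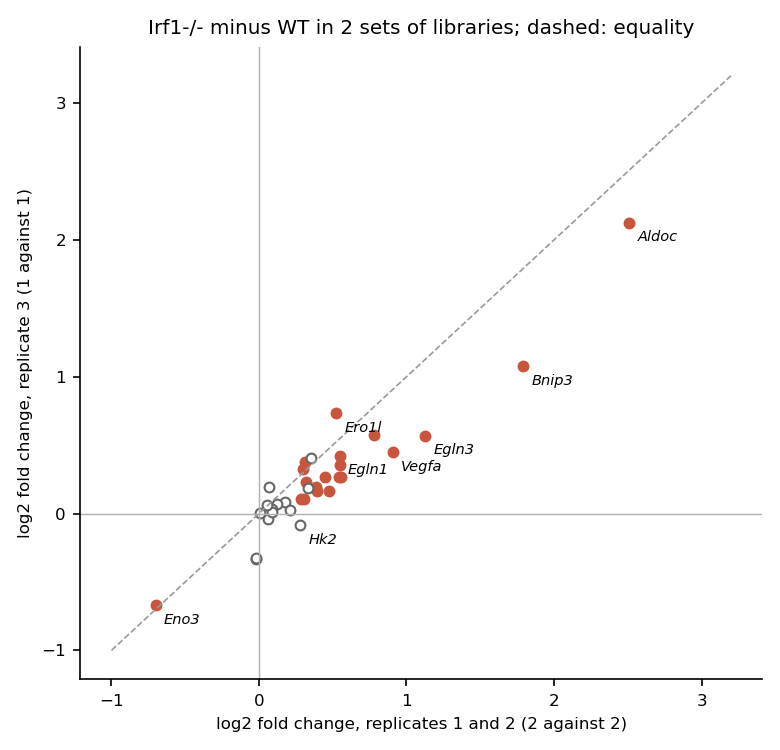
Log2 fold change of each of the 34 genes between replicates 1 and 2 of the genotypes (horizontal axis, 2 against 2 cultures) and between the replicate 3 cultures (vertical axis, 1 against 1), with filled points for genes that passed the test over all 6 cultures and a dashed line of equality. Aldoc, Bnip3, Egln3 and Vegfa lie in the upper right and Eno3 in the lower left, whereas Hk2 lies below 0 on the vertical axis.

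Across 19 alternative fits 7 genes kept their call, Aldoa, Aldoc, Eno3, Egln1, Egln3, Bnip3 and Vegfa. The share of all genes tested that kept a call in this way was not computed. Aldoa and Egln1 lost theirs with replicates 1 and 2 averaged, a fit that is not among the 19. The number of the 34 genes that rose was 10 without WT replicate 1 (7.1% of all genes tested), 10 without WT replicate 2 (7.02%) and 21 without WT replicate 3 (12.1%). It was 14 (8.06%), 10 (7.21%) and 14 (10.7%) without Irf1-/- replicates 1, 2 and 3. On the recovered reads edgeR gave 19 (11.1%) and DESeq2 16 (8.08%), while limma without a trend gave 8 (8.16%) and with the Y-linked transcripts as a covariate 7 (5.13%). Hk1, Gpi1, Pgk1 and Pkm were each lost without WT replicate 1, without WT replicate 2, without Irf1-/- replicate 2 and without Irf1-/- replicate 3, and Gpi1 and Pkm also without Irf1-/- replicate 1. Tpi1 and Bnip3l were lost without any one of the first 3 of these libraries, and Ero1l without WT replicate 1 or 2. Bpgm was lost without WT replicate 2, WT replicate 3, Irf1-/- replicate 1 or Irf1-/- replicate 2. Pgm2 kept its call without WT replicate 2 or 3, and P4ha1 kept its call without WT replicate 3 or Irf1-/- replicate 3. For these 10 genes the adjusted p from limma, edgeR or DESeq2 reached 0.696 (Gpi1), 0.516 (Pgk1) and lower values in the other 8 over the 19 alternatives, and the log2 fold changes stayed above 0. Pfkl, Pfkp and Eno1 kept their call whichever library was left out.

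Promoter sequences were compared because 19 genes moved the same way and many of them are known HIF targets. RefSeq promoter windows, from 250 bases before to 50 bases after a transcription start on GRCm38.p6, were found for 32 of the 34 genes, all except Bnip3l and Ero1l, and gave 48 windows. The core of the hypoxia response element, ACGTG on either strand, occurred in 25 of the 48 windows (52.1%) and in 19.6% of the 32851 windows of all genes. Because the 34 genes were chosen by name for this pathway, a higher share than in all genes can come from that choice. It says nothing about these cultures. Windows of the same gene can also overlap, as windows 2 and 3 of Aldoa do, so they are not independent. It was present in 12 of 25 windows of genes that rose (48.0%), in 13 of 22 windows of genes that did not pass the test (59.1%) and not in the window of Eno3, so it was not more frequent in the windows of the genes that rose. CACGTG, the E-box that holds the same core on both strands, occurred in 12.5% of the 48 windows and 7.15% of all windows, with 1 of 25 windows of genes that rose (4.0%) and 5 of 22 of genes that did not pass the test (22.7%). The letters AANNGAAA, part of the interferon-stimulated response element to which IRF proteins bind, occurred in 18.8% and 23.9%. A match is a string of letters and not a bound site. The stretches below show the core upstream of a RefSeq transcription start of 6 genes that rose, from the hydroxylase and mitophagy genes of the hypoxia response to 2 glycolytic enzymes, with ACGTG or its reverse complement CACGT in capitals (overlapping as CACGTG in Bnip3) and each written along the strand of its gene. They are chr7:138909580-138909644 for Bnip3, chr12:54204069-54204124 for Egln3, chr8:124949288-124949352 for Egln1 and chr7:126799346-126799410 for Aldoa, all on the - strand, and chrX:106186920-106186984 for Pgk1 and chr10:59323250-59323295 for P4ha1 on the + strand. For Aldoa this is an inner start, so the stretch lies within the gene, and the window at its outermost start lacked the core. The Egln1 stretch lies partly within the annotated extent of its gene.
Bnip3: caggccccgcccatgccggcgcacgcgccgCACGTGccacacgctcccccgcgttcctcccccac
Egln3: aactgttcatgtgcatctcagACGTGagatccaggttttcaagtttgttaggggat
Egln1: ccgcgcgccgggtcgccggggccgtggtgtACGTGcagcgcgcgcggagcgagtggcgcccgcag
Aldoa: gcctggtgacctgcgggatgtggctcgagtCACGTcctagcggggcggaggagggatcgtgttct
Pgk1: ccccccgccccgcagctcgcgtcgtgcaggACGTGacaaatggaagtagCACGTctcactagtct
P4ha1: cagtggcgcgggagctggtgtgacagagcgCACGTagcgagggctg

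Among the first steps of glycolysis, 2 of 3 genes of phosphofructokinase, which commits the sugar to breakdown, and 1 of 2 genes of hexokinase, which traps glucose in the cell, rose, against 11.4% of all genes. Pfkp, the platelet-type subunit (chromosome 13 of GRCm38, 6579768 to 6648777, - strand), had normalized counts of 4420.3, 4467 and 5813 (WT) against 6403, 6518 and 6982 (Irf1-/-). Its genotypes did not overlap, and its log2 fold change was 0.45 (SE 0.0938, limma adjusted p = 0.00678). Pfkl, the liver-type subunit, rose from 2697 ± 251 in WT to 3367 ± 49.5 in Irf1-/- cells, for a log2 difference of 0.32 (SE 0.0654, limma adjusted p = 0.00567). Pfkm, the muscle-type subunit, had 356 ± 54.9 and 392 ± 40.8 normalized counts and did not pass the test (log2 fold change 0.15, limma adjusted p = 0.394). Hk1, the hexokinase bound to the outer mitochondrial membrane in many tissues, rose by 0.29 on the log2 scale (SE 0.0797, limma adjusted p = 0.0251), with normalized counts of 2073, 2019.7 and 2450.2 (WT) against 2503, 2595 and 2874 (Irf1-/-). Hk2, the hexokinase that is induced when T cells are activated, had normalized counts of 2201, 2248 and 2793 (WT) against 2799, 2611 and 2632 (Irf1-/-). WT replicate 3 lay within the range of the Irf1-/- cultures for Hk2, and the gene did not pass the test, with a log2 fold change of 0.16 (SE 0.0838, limma adjusted p = 0.199). Gpi1, which converts glucose 6-phosphate to fructose 6-phosphate, rose by 0.32 on the log2 scale (SE 0.0987, limma adjusted p = 0.0394), although the genotypes overlapped at normalized counts of 4501 in WT replicate 3 and 4393 in the lowest Irf1-/- culture.

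Aldolase, which splits the 6-carbon sugar, held the largest log2 fold change of the 34 genes. Aldoc, the aldolase of brain (chromosome 11 of GRCm38, 78322968 to 78327781, + strand), was a rare transcript with normalized counts of 18.7, 31.3 and 61.5 (WT) against 133, 154 and 272 (Irf1-/-). Its lowest Irf1-/- culture had more than the highest WT culture, and its mean was 5.01 times as high in Irf1-/- cells, for a log2 difference of 2.38 (SE 0.375, limma adjusted p = 0.00148), which was 1.51 in the libraries with Xist. Aldoa, the aldolase of most tissues (chromosome 7 of GRCm38, 126795234 to 126800751, - strand), was among the most abundant transcripts of the pathway, with normalized counts of 10135, 10131 and 12417 (WT) against 14409.8, 15249.6 and 15862 (Irf1-/-). The genotypes did not overlap, and the log2 fold change was 0.48 (SE 0.0788, limma adjusted p = 0.00178). Per kilobase of exon, the level of Aldoa rose from 3742 to 5213 normalized counts and that of Aldoc from 11.4 to 57.01. Between the replicate 3 cultures, the log2 fold change was 2.13 for Aldoc and 0.35 for Aldoa.

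Of the enzymes that lead from the triose phosphates towards phosphoenolpyruvate, Tpi1, Pgk1 and Bpgm rose and Gapdh and Pgam1 did not pass the test. Tpi1, which interconverts the triose phosphates, had normalized counts of 5167, 5433 and 7011 (WT) against 7184, 7546 and 7878 (Irf1-/-), and its log2 fold change was 0.37 (SE 0.0975, limma adjusted p = 0.0193). Pgk1, the phosphoglycerate kinase that forms ATP and is encoded on the X chromosome, had 564, 638 and 783 (WT) against 776, 861 and 941 (Irf1-/-). WT replicate 3 exceeded Irf1-/- replicate 1 for Pgk1, and the log2 fold change was 0.39 (SE 0.113, limma adjusted p = 0.0314). Gapdh, the dehydrogenase of glyceraldehyde 3-phosphate, had normalized counts of 1665, 1821 and 1821 (WT) against 1798, 1828 and 1776 (Irf1-/-), with a log2 fold change of 0.03 (SE 0.0551, limma adjusted p = 0.768). Pgam1, the phosphoglycerate mutase, had a log2 fold change of 0.01 (SE 0.118, limma adjusted p = 0.977), with 182 ± 24.01 normalized counts in WT and 182 ± 12.5 in Irf1-/- cells. These 2 transcripts, which sit between genes that rose, overlapped between the genotypes. Of the 50-base words of their transcripts, 24.7% (Gapdh) and 36.2% (Pgam1) occur in distant genes, and 53.9% of those of Pgk1 do, so these levels are uncertain. Bpgm, which makes 2,3-bisphosphoglycerate, rose by 0.33 on the log2 scale (SE 0.0909, limma adjusted p = 0.0231).

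The enolases among the 34 genes, Eno1 and Eno3, moved in opposite directions. Eno1, the enolase of most tissues (chromosome 4 of GRCm38, 150236721 to 150248879, + strand), had normalized counts of 5119, 5126 and 6626 (WT) against 7265, 7819 and 7967 (Irf1-/-), and rose by 0.46 on the log2 scale (SE 0.0914, limma adjusted p = 0.00523). Eno3, the muscle-type enolase (chromosome 11 of GRCm38, 70657202 to 70662513, + strand), had 801, 840.3 and 738 (WT) against 469, 542 and 465 (Irf1-/-). All Irf1-/- cultures lay below all WT cultures for Eno3, and its log2 fold change of -0.69 (SE 0.0805, limma adjusted p = 0.000247) was the lowest of the 34 genes. Its log2 fold change was -0.70 between replicates 1 and 2 and -0.67 between the replicate 3 cultures. Eno3 lies 16.9 Mb and Aldoc 24.6 Mb from Irf1 on chromosome 11, and whether sequence carried along with the deleted locus differs there was not tested. No 50-base word of the Eno3 transcripts occurs in another gene, whereas 26.0% of those of Eno1 do.

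At the end of the pathway Pkm rose, and both lactate dehydrogenase genes did not pass the test. Ldha, the lactate dehydrogenase subunit that favours lactate, had the highest level per kilobase of exon of the 34 genes, 5924 normalized counts in WT and 6551 in Irf1-/- cells. Its normalized counts were 18478, 18839.7 and 21509.9 (WT) against 21427, 21744 and 21878 (Irf1-/-). The genotypes overlapped, since WT replicate 3 lay among the Irf1-/- cultures, and Ldha did not pass the test (log2 fold change 0.15, SE 0.0626, limma adjusted p = 0.112), but passed it in 4 of the 19 alternatives. Pkm, the pyruvate kinase that forms the last ATP, had normalized counts of 15419, 14796 and 17647 (WT) against 18023, 18794 and 19016 (Irf1-/-). It rose by 0.23 on the log2 scale (SE 0.0670, limma adjusted p = 0.0330), a call that 8 of the 19 alternatives did not keep. Ldhb, the subunit that favours pyruvate, had a log2 fold change of -0.12 (SE 0.114, limma adjusted p = 0.479). Pgm2, a mutase of sugar phosphates, rose by 0.31 on the log2 scale (SE 0.0887, limma adjusted p = 0.0303). In all, 12 of the 19 enzyme genes rose (63.2%, against 11.4% of all genes), 1 fell (5.26%, against 12.4%) and 6 did not pass the test, and the median log2 fold change was 0.31. With 1 library left out, 5 to 13 of the 19 rose, against 7.02% to 12.1% of all genes, the fewest without Irf1-/- replicate 2.

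**Figure D3:**
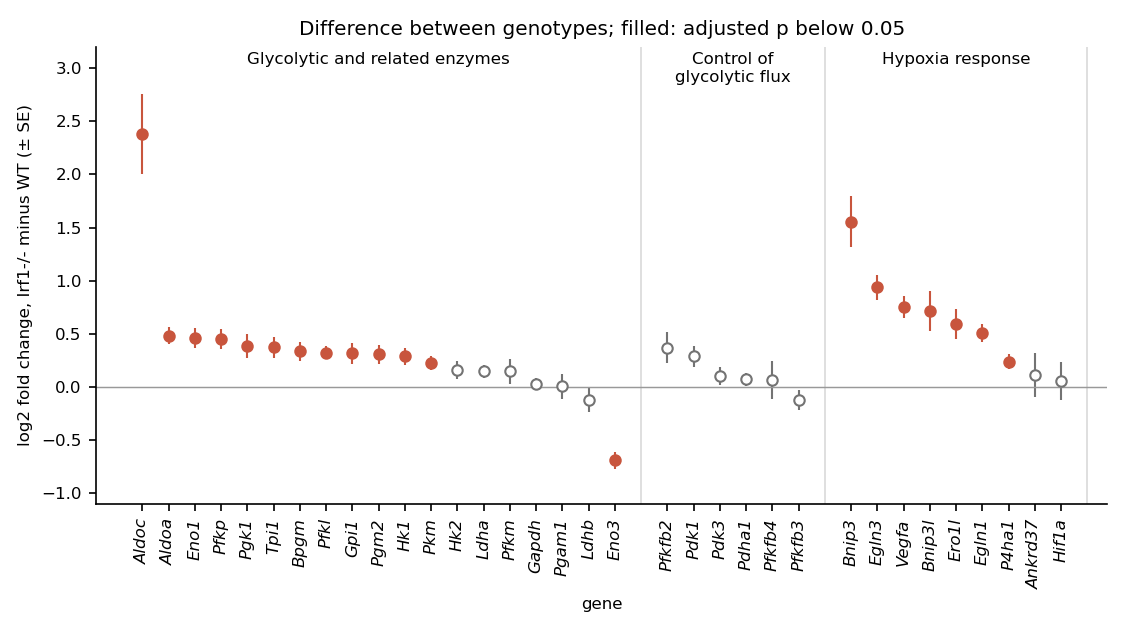
Log2 fold change (Irf1-/- minus WT) of the 34 genes with its standard error, in the 3 groups by role and ordered by size within each, with filled points for an adjusted p below 0.05 in limma's test. Filled points make up 12 of 19 enzymes above 0 with Eno3 below it, none of the 6 genes of flux control and 7 of the 9 genes of the hypoxia response.

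Of the 6 genes that control the flux, 0 passed limma's test at an adjusted p below 0.05 (23.7% of all genes did), 2 had an unadjusted p below 0.05, and the median log2 fold change was 0.09. In edgeR 0 and in DESeq2 1 of them, Pdk1, passed as higher, against 11.1% and 8.08% of all genes, so that in a list of this size the counts are near the background. Pdk1, the kinase that shuts off pyruvate dehydrogenase and is a known HIF target, came closest, with normalized counts of 948, 906 and 1175 (WT) against 1193, 1148 and 1341 (Irf1-/-). WT replicate 3 lay within the range of the Irf1-/- cultures for Pdk1, and its log2 fold change was 0.29 (SE 0.0968, limma adjusted p = 0.0542, passed in 7 of the 19 alternatives). Pdk3, a further such kinase, had a log2 fold change of 0.10, and Pdha1, the catalytic α subunit of pyruvate dehydrogenase, one of 0.07, and both are X-linked. Of the enzymes that set fructose 2,6-bisphosphate, the activator of phosphofructokinase, Pfkfb2 had 59.9, 73.3 and 71.3 (WT) against 93.1, 77.7 and 94.6 (Irf1-/-). Its genotypes did not overlap, yet its log2 fold change of 0.37 did not pass the test (SE 0.150, limma adjusted p = 0.0991). Pfkfb3, the form with the strongest kinase activity, had a log2 fold change of -0.12 (SE 0.0957), and Pfkfb4 had one of 0.06 (SE 0.178).

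Of the 9 hypoxia response genes, 7 rose (77.8%, against 11.4% of all genes), at a median log2 fold change of 0.59, and Hif1a and Ankrd37 did not pass the test. With 1 library left out, 4 to 7 of them rose, against 7.02% to 12.1% of all genes, the fewest without WT replicate 1 or without WT replicate 2. Hif1a, which encodes HIF-1α, had normalized counts of 1756, 1754 and 2628 (WT) against 1775, 1867 and 2751 (Irf1-/-). Replicate 3 was higher than replicates 1 and 2 in both genotypes and the genotypes overlapped, with a log2 fold change of 0.06 (SE 0.177, limma adjusted p = 0.851). The protein of HIF-1α, which oxygen regulates, was not measured here. Egln3, the oxygen-sensing hydroxylase PHD3 (chromosome 12 of GRCm38, 54178981 to 54203860, - strand), had 827, 1013 and 1252 (WT) against 2025, 1971 and 1858 (Irf1-/-). All Irf1-/- cultures lay above all WT cultures for Egln3, and the log2 fold change was 0.94 (SE 0.119, limma adjusted p = 0.000392). Egln1, the hydroxylase PHD2 that chiefly sets HIF-1α turnover in normal oxygen, had 915, 866 and 1079 (WT) against 1279.9, 1322 and 1446 (Irf1-/-), and rose by 0.51 on the log2 scale without overlap (SE 0.0842, limma adjusted p = 0.00204). Both transcripts belong to the negative feedback of the pathway and both rose.

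Bnip3 and Bnip3l, whose products mark mitochondria for removal by mitophagy, also rose. Bnip3 (chromosome 7 of GRCm38, 138890836 to 138909519, - strand) had normalized counts of 91.1, 101 and 199 (WT) against 346, 323 and 421 (Irf1-/-). The highest WT value, that of replicate 3, stayed below all Irf1-/- values, and the mean was 2.79 times as high in Irf1-/- cells, for a log2 difference of 1.55 (SE 0.241, limma adjusted p = 0.00135), which was 0.86 in the libraries with Xist. Bnip3l had 237, 272 and 408 (WT) against 420.3, 455 and 606 (Irf1-/-), with a log2 fold change of 0.71 (SE 0.187, limma adjusted p = 0.0195). Of the 50-base words of their transcripts, 36.9% (Bnip3) and 20.8% (Bnip3l) occur in distant genes, so that their levels are uncertain where reads of several origins were dropped or shared out. The same holds, with more than 20% of such words, for Gapdh, Pgk1, Pgam1, Eno1 and Ldhb, which makes 7 of the 34 genes. Hk1, Gpi1, Pfkp, Pfkm, Gapdh, Pkm, Pdha1, Pfkfb2, Hif1a, Bnip3 and Ankrd37 share words with a gene that the reference annotation places over them, from 0.413% (Gapdh) to 17.3% (Pfkfb2). For Bnip3 (15.9%) and Pkm (12.1%) that gene has no row of its own in the count table.

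Vegfa, the growth factor for blood vessels (chromosome 17 of GRCm38, 46016993 to 46032369, - strand), had normalized counts of 332, 295 and 355 (WT) against 615, 562 and 484 (Irf1-/-). No WT culture reached the lowest Irf1-/- culture, and the log2 fold change was 0.75 (SE 0.102, limma adjusted p = 0.000597), 0.91 between replicates 1 and 2 and 0.45 between the replicate 3 cultures. Ero1l, named Ero1a in RefSeq, is the oxidase that drives disulfide formation in the endoplasmic reticulum, and it had 1342, 1389 and 1719 (WT) against 1966, 1958 and 2855 (Irf1-/-). Irf1-/- replicate 3 stood above the other cultures for Ero1l, and the log2 fold change was 0.59 (SE 0.139, limma adjusted p = 0.0116). P4ha1, a prolyl hydroxylase of collagen, rose by 0.24 on the log2 scale (SE 0.0684, limma adjusted p = 0.0293). Ankrd37, a small ankyrin repeat protein and known HIF target, had 29.95, 33.7 and 34.4 (WT) against 38.2, 29.1 and 39.6 (Irf1-/-), and with a log2 fold change of 0.11 (SE 0.206, limma adjusted p = 0.736) it did not pass the test.

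Because several steps are served by paralogous genes, the share that 1 paralog took of the normalized counts of its pair or family was compared between the genotypes by an exact two-sided permutation test, which cannot go below p = 0.1 with 3 against 3 cultures. Bnip3 made up 29.2% ± 3.10 of Bnip3 and Bnip3l in WT and 42.6% ± 2.29 in Irf1-/- cells. Egln3 took 51.7% ± 3.66 of Egln1 and Egln3 in WT and 59.1% ± 2.60 in Irf1-/- cells. Aldoc held 0.328% ± 0.155 of both aldolases in WT and 1.20% ± 0.423 in Irf1-/- cells, so Aldoa was by far the larger part in both. In these 3 pairs the genotypes did not overlap, each with an exact permutation p = 0.1 and, over the 8 shares tested, an adjusted p of 0.16. The shares of Pfkp in the phosphofructokinases (61.5% ± 1.39 and 63.8% ± 0.525) and of Ldha in both lactate dehydrogenase genes (99.1% ± 0.0963 and 99.2% ± 0.0955) did not overlap either, with the same p-values from the exact permutation test. Hk2 made up 52.5% ± 0.897 of both hexokinases in WT and 50.3% ± 2.49 in Irf1-/- cells, with overlap and an exact permutation p = 0.3. Pdk1 made up 69.1% ± 1.44 of Pdk1 and Pdk3 in WT and 71.8% ± 1.45 in Irf1-/- cells, also with overlap (exact permutation p = 0.2), and Pfkl 34.04% ± 1.44 and 32.4% ± 0.756 of the phosphofructokinases (exact permutation p = 0.3). The share of Eno3 in Eno1 and Eno3, added after its values were seen, was 12.5% ± 2.20 in WT and 6.02% ± 0.489 in Irf1-/- cells, without overlap.

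**Figure D4:**
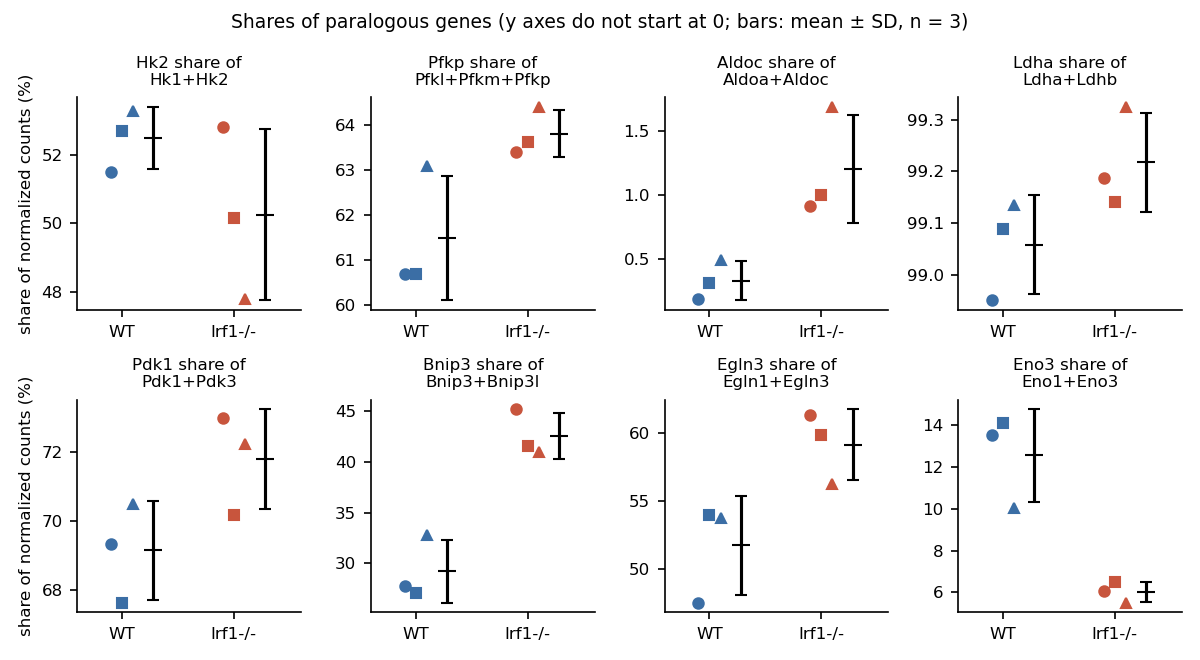
Share (%) that the first-named gene took of the normalized counts of its paralog pair or family in each culture, for 8 of the 9 shares computed; blue symbols are WT, red symbols Irf1-/-, circles, squares and triangles are replicates 1, 2 and 3, and black bars are the mean ± SD of 3 cultures on axes that do not start at 0. The largest gap in percentage points is that of Bnip3, from 29.2% in WT to 42.6% in Irf1-/- cells, and Eno3 lies lower in all Irf1-/- cultures.

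Other known HIF targets, listed apart from the 34 genes, were more often higher in Irf1-/- cells. Of 33 tested, 19 rose (57.6%, against 11.4% of all genes) and 5 fell (15.2%, near the 12.4% of all genes), and the median log2 fold change was 0.35. The 4 with the largest changes were P4ha2, a further collagen prolyl hydroxylase, Ndrg1, a stress-inducible gene, Car9, a carbonic anhydrase of the cell surface, and Stc2, a secreted glycoprotein. P4ha2 had normalized counts of 28.7, 46.9 and 77.5 (WT) against 167, 180.3 and 248 (Irf1-/-), and its log2 fold change was 2.03 (SE 0.294, limma adjusted p = 0.000916). It lies 0.33 Mb from Irf1 on chromosome 11, and Stc2 22.4 Mb, and whether sequence carried along with the deleted locus, or the deletion itself, bears on their levels was not tested. Ndrg1 had 104, 111 and 187 (WT) against 364, 380.0 and 454 (Irf1-/-), with a log2 fold change of 1.62 (SE 0.193, limma adjusted p = 0.000283). In both genes WT replicate 3 was the highest WT culture and still lay below every Irf1-/- culture. Stc2 had 177, 178 and 243 (WT) against 407, 429.9 and 538 (Irf1-/-) (log2 fold change 1.20, SE 0.140, limma adjusted p = 0.000241). Car9 was rare, with 8.74, 6.01 and 2.46 (WT) against 19.1, 13.9 and 14.1 (Irf1-/-) (log2 fold change 1.42, SE 0.438, limma adjusted p = 0.0390). It reached a mean of 10 only through the Irf1-/- cultures (mean 15.7, against 5.74 in WT), so its call carries no weight. Of the 18 alternatives that tested it, 10 lost the call, and over all 18 its log2 fold change ranged from 0.72 to 2.26. At a mean of at least 50 normalized counts, which leaves Car9 out, 18 of 32 genes of the list rose.

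Both glucose transporters and 1 lactate carrier of this list, named here after their values were seen, rose, while Slc16a1, the lactate carrier MCT1 of another list, fell (log2 fold change -0.23, SE 0.0502, limma adjusted p = 0.00778). Slc2a3, the glucose transporter GLUT3, had normalized counts of 507, 459 and 858 (WT) against 1186, 1172 and 1722 (Irf1-/-) and rose by 1.19 on the log2 scale (SE 0.212, limma adjusted p = 0.00288). Slc16a3, the lactate exporter MCT4, had 645, 678 and 1002 (WT) against 1538, 1519 and 1471 (Irf1-/-) and rose by 0.99 (SE 0.134, limma adjusted p = 0.000603). Neither overlapped between the genotypes. In the libraries with Xist their log2 fold changes were 0.64 (Slc2a3) and 0.59 (Slc16a3). With replicates 1 and 2 averaged, Slc2a3 lost its call (limma adjusted p = 0.0608) and Slc16a3 kept it. Slc2a1, the glucose transporter GLUT1, rose by 0.29 (SE 0.0907, limma adjusted p = 0.0384), but its value in WT replicate 3 (1403) exceeded that in Irf1-/- replicate 3 (1371), and its call was lost without WT replicate 1, WT replicate 2, Irf1-/- replicate 1 or Irf1-/- replicate 2. The 5 targets that fell, also named after their values were seen, were Nampt (-0.54), which makes a precursor of NAD, Zfp395 (-0.50), the transcription factor gene Bhlhe40 (-0.48), Tfrc (-0.38), the transferrin receptor, and Ccng2 (-0.28), a cyclin, in log2 fold change. Nampt and Tfrc kept this call in all 19 alternatives, whereas Zfp395 and Bhlhe40 each lost it in 5 and Ccng2 in 11, among them the fits without any 1 library. In the 4 libraries with Xist, the median log2 fold change of the 33 genes was 0.26. With replicates 1 and 2 averaged, 10 rose and 2 fell (3.63% and 3.46% of all genes), and Car9 was not among them. With 1 library left out, 13 to 17 rose, against 7.02% to 12.1% of all genes.

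The lists of the HIF machinery and of the neighbouring pathways and regulators are read here against the 11.4% of all genes that rose and the 12.4% that fell, and of the TCA cycle list 11.1% rose and 11.1% fell. Of 11 tested genes of the HIF machinery, 1 rose and 0 fell in limma's test, and the median log2 fold change was 0.03. The gene that rose was Epas1, which encodes HIF-2α, with normalized counts of 29.95, 14.4 and 30.1 (WT) against 93.1, 77.7 and 158 (Irf1-/-), and a log2 fold change of 2.10 (SE 0.319, limma adjusted p = 0.00121). Its level was low in both genotypes, 4.44 and 19.6 normalized counts per kilobase of exon against 347 and 361 for Hif1a. Of 12 further glycolysis genes tested, Pgm1, the main phosphoglucomutase, rose (0.71), Slc16a1 fell (-0.23, both log2 fold changes), and the median was 0.12. In the libraries with Xist the log2 fold changes were 0.38 (Pgm1) and -0.26 (Slc16a1), and with replicates 1 and 2 averaged both calls were lost. Of 8 further genes of the pyruvate dehydrogenase complex and its regulators 0 passed the test in limma, edgeR or DESeq2, with 1 at an unadjusted p below 0.05 in limma and a median log2 fold change of -0.00. Of 18 genes of the tricarboxylic acid (TCA) cycle, 2 rose, among them Suclg1 (0.35), and 2 fell, Ogdh (-0.18) and Sdha (-0.15), at a median log2 fold change of 0.03. Suclg1 kept its call in all 19 alternatives, but Ogdh lost it in 10 and Sdha, which passed the threshold narrowly, in 13, both without any 1 library other than Irf1-/- replicate 3. With quantile normalization 6 TCA cycle genes rose and 0 fell in limma (11.0% and 10.7% of all genes), and with library totals 3 rose and 1 fell (13.2% and 10.3%). Of 9 pentose phosphate genes, Taldo1, the transaldolase, rose (0.29) and Prps1, which makes phosphoribosyl pyrophosphate, fell (-0.32), at a median log2 fold change of -0.00. Of 17 regulators of glycolysis, Txnip, an inhibitor of glucose uptake, rose (0.84), and Tsc1 (-0.29) and Prkaa1 (-0.27), which restrain mTOR signalling, fell in log2 fold change, with a median of -0.00. Tsc1 and Prkaa1 each lost this call in 6 of the 19 alternatives, both of them in DESeq2, without WT replicate 1, without WT replicate 2 and without Irf1-/- replicate 2, and Tsc1 also without Irf1-/- replicate 1. Myc, named after its value was seen, a driver of glycolysis in activated T cells, had a log2 fold change of 0.02 (SE 0.135, limma adjusted p = 0.932).

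**Figure D5:**
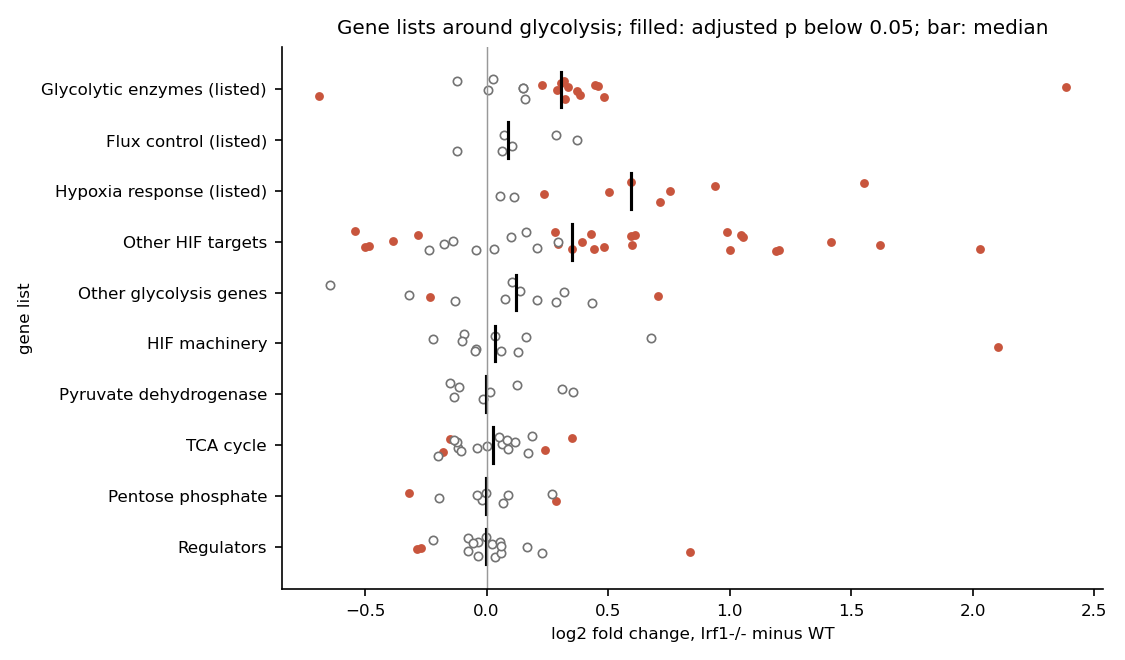
Log2 fold change (Irf1-/- minus WT) of each tested gene in the 3 groups of the 34 genes (marked listed) and in 7 further gene lists, with filled points for an adjusted p below 0.05, open points for the others and a black bar at the median of each list. The medians of the listed hypoxia response genes (0.59), the other HIF targets (0.35) and the listed enzymes (0.31) lie furthest to the right, and those of the pyruvate dehydrogenase, TCA cycle and pentose phosphate genes lie near 0.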

How the data were processed

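RNA was measured in 3 WT and 3 Irf1-/- Th9 cultures. The authors aligned single-end reads of 50 bases to GRCm38 with STAR 2.4.0b, counted them on genes of Ensembl release 76 with featureCounts and used DESeq2 1.12.3, per the submitters' notes and the study's methods. The values deposited are a signal in units of normalized counts, the read count of a gene after the authors had scaled it by the size factor of the library. All non-zero values (100%) came out as whole reads within 0.01 of a read. Strand use and the treatment of reads that match several genes are not given in the sources used here, which leaves overlapping genes and close paralogs uncertain. Columns of no sample numbered 0.

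The genotypes were compared by limma 3.58.1 in R 4.3.3 (eBayes with a trend) on log2(normalized count + 1), over 11379 genes with a mean of at least 10 and with Benjamini-Hochberg adjustment over all of them. Shares of paralogs were compared with an exact two-sided permutation test in scipy 1.17.1. The fits were tested on simulated data. The 34 genes and the lists were chosen with earlier results of these data known. All 34 genes are named, and of each other pathway list up to 4 genes with an adjusted p below 0.05 and the largest absolute log2 fold changes. Outside this rule, the glucose and lactate transporters and the HIF targets that fell, Myc and the genes of glycogen metabolism were named after their values were seen. Single values of 2 genes of the other lists are not reported here. Marker lists are given as sums. Coordinates and exon lengths are those of a GRCm38 annotation matched by Ensembl identifier. Alternatives were pseudocounts of 0.1 and 10, no filter, a mean of at least 50, TMM factors, library totals, quantile normalization, no trend, a replicate block, the recovered reads in edgeR 4.0.16 or in DESeq2 1.42.0, Y-linked transcripts as a covariate, replicates 1 and 2 only and each library left out.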

Additional observations from a re-analysis of the deposited data

How the results depend on the processing

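All 20 calls among the 34 genes were kept with other pseudocounts, filters or size factors, in edgeR and with a replicate block. Quantile normalization lost Pkm, DESeq2 lost 4 and the fit without a trend lost 11. The count of genes that rose among the 34 was 8 without a trend, 7 with the Y-linked transcripts as a covariate and, in alternatives added after seeing the data, 4 in the 4 libraries with Xist and 4 with replicates 1 and 2 averaged. With 1 library left out it ranged from 10 to 21. The count of genes that fell stayed at 1 throughout. The median log2 fold change of the 34 genes was 0.10 with the covariate and 0.10 in the libraries with Xist, and 0.24 to 0.35 with 1 library left out. Over all genes tested, 584 rose and 772 fell with the covariate, 392 rose and 392 fell in the libraries with Xist, 413 rose and 394 fell with the averaged replicates, 807 fell without a trend, and with 1 library left out 799 to 1372 rose and 826 to 1472 fell. The cause of these changes was not tested.

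The replicate numbers gave correlations of 0.09, 0.27 and 0.32 between same-numbered cultures of the genotypes, not all over 0.1. The labels tie these cultures by number only, and whether they share more was not tested. Each culture correlated best with its own number, which is a hint from the data and not from the design. With the replicate block as a term, 22 of the 34 genes rose and 1 fell, while 1893 of all genes rose and 2116 fell.

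Among genes that did not pass the test, the log2 fold change changed sign for Hk2 (-0.060), Pfkm (-0.081), Gapdh (-0.017), Pgam1 (-0.11), Pdk3 (-0.034), Pdha1 (-0.032) and Hif1a (-0.33), both with the covariate and in the libraries with Xist. It was also below 0 for Pgam1 (-0.042), Pfkfb4 (-0.026) and Ankrd37 (-0.029) under quantile normalization, and for Pgam1 in edgeR (-0.0014), in DESeq2 (-0.00062) and with the averaged replicates (-5.4e-05). With 1 library left out, it ranged from -0.017 to 0.048 for Gapdh, from -0.11 to 0.064 for Pgam1, from -0.068 to 0.20 for Pfkfb4 and from -0.14 to 0.25 for Hif1a. Depth limits the rare transcripts: 3 reads corresponded to a normalized count of up to 4.16, and Car9 lay at 2.46 to 8.74 in WT cultures.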

Other observations

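Genes of glycogen metabolism, a store of glucose that branches off glycolysis at glucose 6-phosphate, were listed after the value of Gys1 had been seen, so their counts are a description of these cultures only, and Gys1 and Gbe1 are also among the HIF targets counted before. Of 20 genes listed, 14 were abundant enough to be tested, 6 rose (42.9%, against 11.4% of all genes) and 0 fell at an adjusted p below 0.05 in limma's test, with 8 not passing it. The median log2 fold change was 0.27, and all 14 values lay above 0. Gys1, the glycogen synthase of tissues other than liver and a known HIF target, had normalized counts of 257, 242 and 379.9 (WT) against 531, 573 and 689 (Irf1-/-). Its genotypes did not overlap, and its log2 fold change was 1.05 (SE 0.157, limma adjusted p = 0.00114). Gbe1, the branching enzyme, rose by 0.44 on the log2 scale (SE 0.134, limma adjusted p = 0.0362). Ppp1r3b, which brings a phosphatase to glycogen, rose by 0.86 (SE 0.191, limma adjusted p = 0.00918), and Gaa, which breaks down glycogen in lysosomes, by 0.33 (SE 0.0955, limma adjusted p = 0.0293). Gbe1 and Gaa each lost their call in 7 of the 19 alternatives. Pygl, the liver form of glycogen phosphorylase, also passed the test (limma adjusted p = 0.0209) but was rare, with 0, 1.20 and 5.53 (WT) against 7.16, 15.3 and 31.95 (Irf1-/-). It reached a mean of 10 only through the Irf1-/- cultures (mean 18.1, against 2.24 in WT), so its call carries no weight, and 6 of 18 alternatives lost it. Without Pygl, 5 of 13 genes rose. Pygb, the brain form and the most abundant of the 3 phosphorylases, had 977, 1106 and 1061 (WT) against 1177, 1061 and 1327 (Irf1-/-) and did not pass the test. The count of genes that rose, beside the share of all genes that did, was 2 without WT replicate 1 (7.1%), 2 without WT replicate 2 (7.02%), 3 without Irf1-/- replicate 2 (7.21%), 4 without Irf1-/- replicate 3 (10.7%), 5 without Irf1-/- replicate 1 (8.06%) and 7 without WT replicate 3 (12.1%). It was 3 without a trend (8.16%) and 1 with the Y-linked transcripts as a covariate (5.13%). In the 4 libraries with Xist, 1 of the 14 genes rose, Gys1 (3.44% of all genes), and with replicates 1 and 2 averaged 2 rose, Gys1 and Ppp1r3b (3.63%).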
